A study of Mus musculus with 4 samples.

Results

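Kinesins are motor proteins that use ATP to walk along microtubules or to take them apart. The set comprised every mouse gene with a symbol of Kif followed by a digit, together with Kifc1, Kifc2 and Kifc3, which gave 42 of the 24530 genes and unnamed transcripts in the files. The symbol alone decided which genes are members, but that rule and the roles below were set with earlier results of these data known. The mean raw count over the 4 libraries chose only which transcript stood for a gene. Of the 42, 13 are mitotic kinesins, 15 carry cargo and are called transport kinesins here, and 14 have other or unclear roles. The last class also holds 2 entries that encode no motor, the noncoding antisense RNA gene Kif16bos and the pseudogene Kif4-ps, because their symbols match.

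Transport kinesins move vesicles, organelles and protein complexes, most of them towards the growing ends of microtubules at the cell edge. Mitotic kinesins are made mainly in dividing cells, where they build the spindle, move chromosomes and organise the last cut between daughter cells. In macrophages, kinesin transport is known for spreading lysosomes and endosomes and for supplying podosomes, the actin-rich contacts through which these cells adhere and degrade matrix.

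Poly(A) RNA was sequenced from RAW 264.7 cells, a dividing mouse macrophage line of tumour origin. The control group was 2 libraries of cells with a stably expressed Empty Vector, pcDNA 3.1(+), and the other group was 2 libraries of cells stably expressing Dnm3os, a long noncoding RNA. All were grown at passages 3 to 6 in DMEM with 5.5 mmol/L glucose and 10% serum. Nothing in the labels says that the libraries are separate cultures, or that a line is a pool or a clone, so p-values measure the spread between these libraries, which may be technical. The series title gives the purpose as the function in macrophages of Dnm3os, an RNA induced in diabetes. The comparison here asks which kinesin transcripts differ between the groups.

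Depth over 1 transcript per gene ranged from 29416272 to 39769640 counts per library. Dnm3os had 0 and 0 counts in the empty vector libraries and 208 and 260 in the Dnm3os libraries, as the labels say. All 8 macrophage markers were detected, with a summed level of 9581 to 9743 CPM (read counts scaled to library size) in the empty vector and 10455 to 10923 CPM in the Dnm3os libraries. Of these, Csf1r, Itgam and Lyz2 rose and Adgre1 and Cd68 fell. The summed markers of fibroblasts, B cells and epithelium were each at or under 0.0752 CPM in all 4 libraries. T cell markers summed to 5.44 to 7.19 CPM with Cd3e and Cd3g at 0, and endothelial markers to 1.66 to 2.26 CPM.

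Of the 42 members, 31 had enough counts to be tested. Transcripts of 5 of them differed between the groups: Kif21b and Kif5a rose, and Kif21a, Kif1c and Kif3c fell. That is 16.1% of the members tested, against 12.3% of all 13172 genes tested (a gene was called where edgeR's quasi-likelihood F test gave a p under 0.05 after Benjamini-Hochberg adjustment over all genes). By direction, 2 of 31 rose against 6.51% of all genes, and 3 of 31 fell against 5.75%. The groups did not overlap for 17 of the 31, against 51.2% of all genes. The share called was thus near that of genes in general. Of the 31, 1 was called with a change of at least 1.5-fold, Kif21a, against 2.99% of all genes. The other 4 called changed by less.

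**Figure D1:**
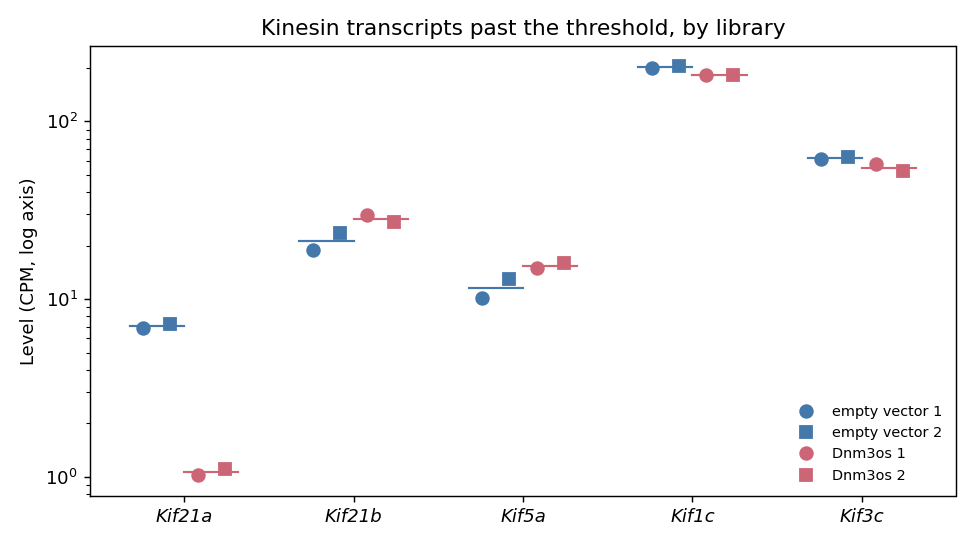
Level in CPM (log axis) of the 5 kinesins past the threshold, with 1 point per library (circles, replicate 1; squares, replicate 2; blue, empty vector; red, Dnm3os) and a line at each group mean. Kif21a drops from about 7.08 to 1.06 CPM, and the shifts of the other 4 genes are small beside it.

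Kif21a showed the largest change of the family. It encodes a motor that also holds back microtubule growth at the cell cortex. Its level was 6.90 and 7.27 CPM in the empty vector libraries and 1.02 and 1.11 CPM in the Dnm3os libraries, from 275, 257, 30 and 38 counts. Both Dnm3os libraries lay far below both empty vector libraries, and the libraries of a group lay close together. The mean was 6.66-fold lower, at 1.06 ± 0.0629 against 7.08 ± 0.267 CPM (SD, n = 2 per group), a log2 fold change of -2.73 ± 0.16 (SE) with adjusted p = 1.58e-11 by edgeR. Among all genes tested, 12 had a lower log2 fold change, and only 0.167% were called at least 4-fold lower.

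The fall of Kif21a did not depend on the transcript kept. The files list 4 RefSeq transcripts of the gene, and their counts overlap because they share most exons. They held 262 to 275 counts in empty vector library 1, 243 to 257 in library 2, 28 to 30 in Dnm3os library 1 and 33 to 38 in Dnm3os library 2. Each of the 4 therefore showed the drop. With the isoforms summed the log2 fold change was -2.78, and over the alternatives tried it stayed between -2.79 and -2.67 and past the threshold in all 14.

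The sequence just upstream of Kif21a is shown because this gene carried the largest difference. It is the 250 bases before the annotated start in RefSeq, build GRCm38.p6, chr15:91049952-91050201 on the minus strand; the study's processing notes name mm9, so these coordinates are not those of its alignments. G and C made up 69.6% of it, and 90.2% of the 32851 promoters in the table had a lower share. It held no copy on either strand of TTTGAA, nor of TTTAAA or of the box CCAAT.
Kif21a: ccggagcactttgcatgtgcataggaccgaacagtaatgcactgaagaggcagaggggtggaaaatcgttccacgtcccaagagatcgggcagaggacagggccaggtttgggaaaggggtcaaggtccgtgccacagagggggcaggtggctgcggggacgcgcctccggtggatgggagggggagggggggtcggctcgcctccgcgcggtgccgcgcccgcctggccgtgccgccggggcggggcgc

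Kif21b, the close relative of Kif21a and likewise a regulator of microtubule growth, moved the other way. It stood at 18.9 and 23.5 CPM in the empty vector libraries and at 29.7 and 27.0 CPM in the Dnm3os libraries. The groups did not overlap, but the empty vector libraries differed from each other by more than the Dnm3os libraries did. The mean was 1.34-fold higher, at 28.3 ± 1.92 against 21.2 ± 3.20 CPM (SD, n = 2), a log2 fold change of 0.42 ± 0.09 with adjusted p = 0.0141 by edgeR. The call was lost without Dnm3os library 1 (log2 fold change 0.35, adjusted p = 0.14) and without Dnm3os library 2 (0.49, adjusted p = 0.0521), and the log2 fold change was 0.26 without empty vector library 1. Per kb of transcript, Kif21a made up 34.4 and 30.9% of the summed level of this pair in the empty vector libraries and 4.71 and 5.59% in the Dnm3os libraries. Kif21b was thus the main member of the pair in every library.

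**Figure D2:**
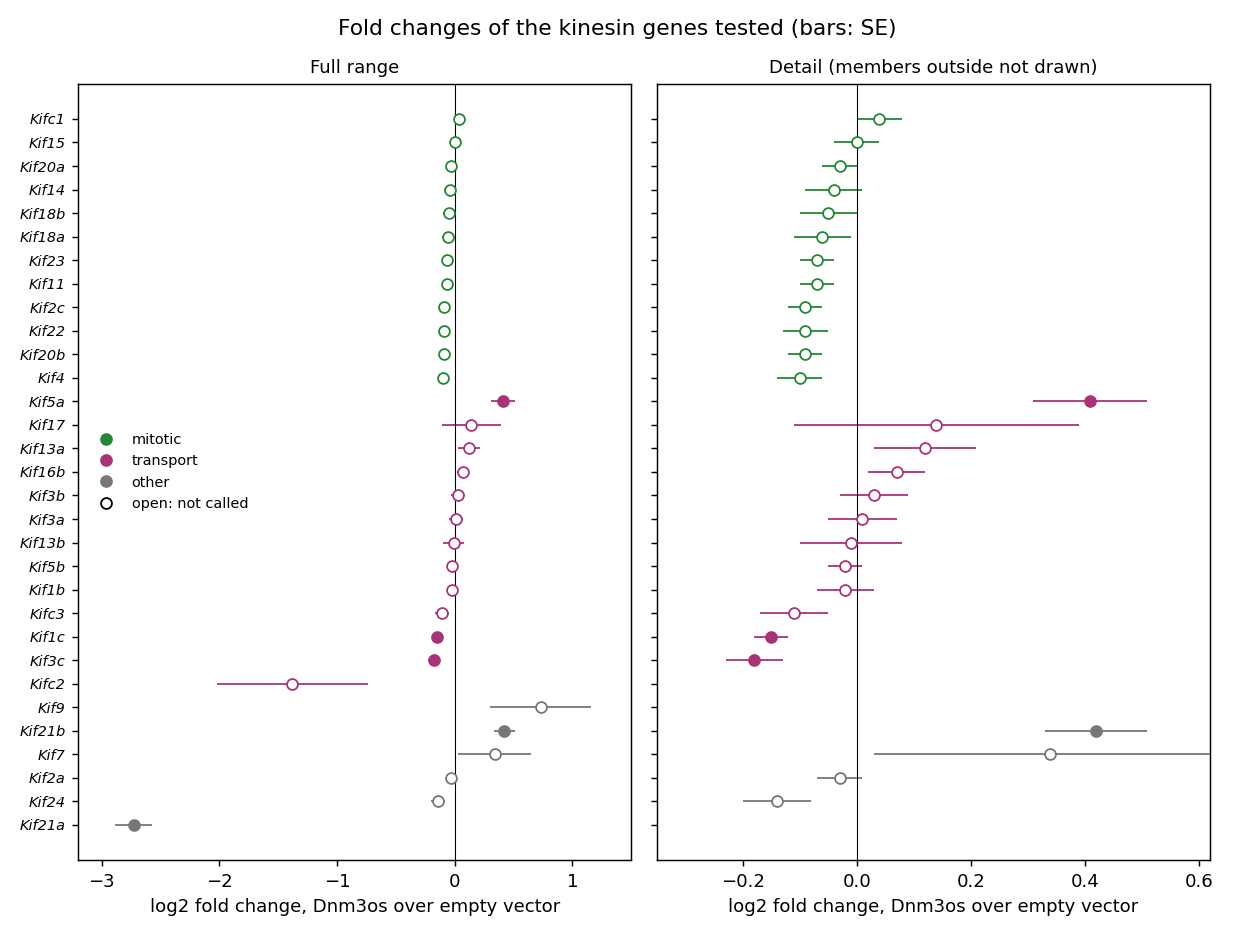
Log2 fold change (Dnm3os over empty vector) with its SE for the 31 kinesins tested, grouped and coloured by role, filled where the adjusted p was under 0.05; the right panel enlarges the centre, where members outside its range are not drawn and the bar of Kif7 runs past the edge. The 12 mitotic kinesins lie between -0.10 and 0.04 with no filled point, and Kif21a stands alone at -2.73.

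Of the 15 transport kinesins 13 were tested: Kif5a rose, Kif1c and Kif3c fell, and 10 did not pass. That is 23.1% called, against 12.3% of all genes. Their median log2 fold change was -0.01, beside 0.00 over all genes tested, and their summed level was 765 and 782 CPM in the empty vector and 755 and 740 CPM in the Dnm3os libraries. These sums did not overlap and differed by -3.41%, from a mean of 774 to 748 CPM. Kif1c alone went from a mean of 203 to 183 CPM, and Kif3c from 62.1 to 54.8 CPM. Of the 13 log2 fold changes, 7 were below 0 and 6 above. DESeq2 called 1 of the 13, and so did the fit without Dnm3os library 2.

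The heavy chains of conventional kinesin, which haul mitochondria, vesicles and lysosomes, are encoded by Kif5a, Kif5b and Kif5c. Kif5b, the form found in most cells, was the most abundant transport kinesin. It stood at 273 and 273 CPM in the empty vector and 274 and 266 CPM in the Dnm3os libraries. The ranges overlapped, and the log2 fold change of -0.02 ± 0.03 had a 95% interval of -0.08 to 0.05. Kif5a, best known from neurons, stood at 10.2 and 13.0 CPM in the empty vector and 14.9 and 15.9 CPM in the Dnm3os libraries.

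Both Dnm3os libraries were above both empty vector libraries for Kif5a, and the mean was 1.33-fold higher, at 15.4 ± 0.696 against 11.6 ± 1.93 CPM (SD, n = 2; log2 fold change 0.41 ± 0.10, adjusted p = 0.0095 by edgeR). This call was the least stable of the 5. It was lost by DESeq2 (adjusted p = 0.0612) and without empty vector library 1 (log2 fold change 0.24), Dnm3os library 1 (0.45) or Dnm3os library 2 (0.36). Of the neuronal markers, Syt1, Rbfox3 and Nefl had 0 counts in all 4 libraries, and the 6 summed to 4.14 and 3.37 CPM in the empty vector and 4.83 and 5.86 CPM in the Dnm3os libraries, mostly from Syn1, which rose. Whether Syn1 and Kif5a are linked was not tested. Kif5c had 3, 1, 3 and 5 counts and was not tested. Per kb, Kif5a was 3.46 and 4.36% of the summed level of the 3 heavy chains in the empty vector libraries and 4.95 and 5.40% in the Dnm3os libraries.

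Kif1c, a vesicle motor known for its role at macrophage podosomes, fell by a small amount. Its level was 201 and 204 CPM in the empty vector libraries and 182 and 183 CPM in the Dnm3os libraries. The groups lay well apart for their spread. The mean was 1.11-fold lower, at 183 ± 0.518 against 203 ± 1.91 CPM (SD, n = 2; log2 fold change -0.15 ± 0.03, adjusted p = 0.00173 by edgeR), and the call held under all 14 alternatives, between -0.16 and -0.14. Its relative Kif1b, a carrier of mitochondria and synaptic vesicle precursors, stood at 49.6, 54.2, 51.0 and 51.0 CPM in empty vector 1 and 2 and Dnm3os 1 and 2, with overlapping groups. Kif1a, the neuronal member, had 1 count in Dnm3os library 2 and 0 in the others. Per kb, Kif1c supplied 84.5 to 86.1% of the level of these 3 genes in the 4 libraries.

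Kif3a, Kif3b and Kif3c form the motor of intraflagellar and vesicle transport, in which Kif3a pairs with either Kif3b or Kif3c. Kif3c stood at 61.1 and 63.1 CPM in the empty vector and 57.2 and 52.4 CPM in the Dnm3os libraries. It did not overlap between the groups and was 1.13-fold lower, at 54.8 ± 3.33 against 62.1 ± 1.46 CPM (SD, n = 2; log2 fold change -0.18 ± 0.05, adjusted p = 0.0123 by edgeR). The call was lost by DESeq2 (adjusted p = 0.109) and without Dnm3os library 2 (log2 fold change -0.12). Exons of Kif3c overlap those of 1110002L01Rik on the opposite strand. That gene had 1200 to 1482 counts and a log2 fold change of 0.04 ± 0.06. The strand setting of the counts is not given in the sources used here, so reads in the overlap cannot be told apart. The same doubt holds for Kif18a, Kif20a, Kif2a, Kif4, Kif7, Kifc2 and Kifc3, whose exons overlap other counted genes on the opposite strand. Exons of Kif17 overlap Sh2d5, and those of Kif1c the microRNA gene Mir6925, on the same strand. There no strand setting could tell the reads apart. Mir6925 had 61 to 102 counts beside 5363 to 8028 of Kif1c. In empty vector library 1, Ticrr had 1570 counts beside 51 of Kif7, and Cyhr1 had 1030 beside 12 of Kifc2.

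Neither partner passed the test. Kif3a had a log2 fold change of 0.01 ± 0.06 (95% interval -0.12 to 0.13) and Kif3b of 0.03 ± 0.06 (-0.09 to 0.15), and Kifap3, which joins the motor to its cargo, of -0.05 ± 0.05. Per kb, Kif3c was 37.0 and 36.2% of the summed level of the 3 motor genes in the empty vector libraries, against 34.2 and 32.8% in the Dnm3os libraries.

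The other transport kinesins tested did not pass. The endosome motor Kif16b stood at 48.1 to 50.5 CPM in the empty vector and 49.3 to 54.1 CPM in the Dnm3os libraries. Kif13a and Kif13b, motors of recycling endosomes and of scaffold proteins, had log2 fold changes of 0.12 ± 0.09 and -0.01 ± 0.09. Kifc3, which walks towards the minus end, was at 39.0 and 36.1 CPM in the empty vector and 34.4 and 35.3 CPM in the Dnm3os libraries (adjusted p = 0.27 by edgeR). Kif17, a motor of cilia and dendrites, was low at 1.05 to 1.64 CPM. Kifc2, a minus-end motor of neurons, had 12, 13, 1 and 7 counts and passed the filter through the empty vector libraries alone; its log2 fold change of -1.38 ± 0.64 had adjusted p = 0.189 by edgeR, and was -0.70 without Dnm3os library 1 and -3.16 without Dnm3os library 2.

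None of the 12 mitotic kinesins tested passed the threshold (0 higher and 0 lower by edgeR, and also 0 by DESeq2 and by limma-voom), against 12.3% of all genes. Over all genes tested, 23.2% had an unadjusted p under 0.05 by edgeR in either direction, and 1465 of 13172 had such a p and were lower. Among the 12 mitotic kinesins there were 3, Kif2c, Kif20b and Kif4, each with a lower mean in the Dnm3os libraries. Their calls appeared under some settings: Kif20b and Kif4 were called lower without empty vector library 1, and Kif2c with no filter on low counts. The 12 log2 fold changes lay between -0.10 and 0.04, with 10 below 0 and 2 above, and the median was -0.07 beside 0.00 over all genes tested. The groups did not overlap for 8 of the 12, against 51.2% of all genes. The levels of the 13 summed to 1257 and 1249 CPM in the empty vector and 1215 and 1198 CPM in the Dnm3os libraries, a difference of -3.71%.

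Kif20a, a central spindle motor needed for cytokinesis, was the most abundant mitotic kinesin, at 223 and 226 CPM in the empty vector and 218 and 221 CPM in the Dnm3os libraries. Its groups lay next to each other without overlap, and the log2 fold change of -0.03 ± 0.03 had a 95% interval of -0.10 to 0.03 (adjusted p = 0.611 by edgeR). Kif11, the motor that pushes spindle poles apart, stood at 166 and 164 CPM against 163 and 152 CPM, with Dnm3os library 2 the lowest (log2 fold change -0.07 ± 0.03, adjusted p = 0.221 by edgeR). The value was -0.12 without Dnm3os library 1 and -0.021 without Dnm3os library 2. Kif23, which with Racgap1 bundles the central spindle, stood at 142 and 136 CPM against 135 and 130 CPM (-0.07 ± 0.03, adjusted p = 0.229 by edgeR). The lower bounds of the 95% intervals were -0.10 for Kif20a and -0.14 for Kif11 and Kif23.

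The depolymerase Kif2c, which corrects faulty attachments at centromeres, had the smallest p of the class, at 124 and 123 CPM against 117 and 115 CPM (-0.09 ± 0.03, adjusted p = 0.0793 by edgeR). Kif4 and Kif22, which bind chromosome arms, had log2 fold changes of -0.10 ± 0.04 and -0.09 ± 0.04. With 1 library left out, Kif4 ran from -0.17 (without empty vector library 1) to -0.032 (without library 2), and Kif22 from -0.13 (without empty vector library 2) to -0.042 (without library 1). Kif18a and Kif18b, which limit the length of spindle microtubules, and Kif14, a cytokinesis motor, lay between -0.06 and -0.04. Kif15, which can stand in for Kif11, was at 0.00 ± 0.04. Kifc1, a minus-end motor that gathers spindle poles, was at 0.04 ± 0.04, but its near-copy Kifc5b had 1927 to 2525 counts and a log2 fold change of 0.10 ± 0.05, and reads may be shared between these genes. Kif2b had 0 counts in all 4 libraries.

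The mitotic kinesins shared a feature of sequence that their choice did not use. The letters TTTGAA, on either strand, are the core of the cell cycle homology region, an element known from genes expressed late in the cell cycle. They occurred within the RefSeq promoter window (250 bases before to 50 after the start, GRCm38.p6) of 10 of the 11 mitotic kinesins tested that had an entry. The share was 13.2% of 12737 promoters of genes tested and 17.9% of all 32851 promoters. Entries existed for 8 of the 13 transport kinesins tested and for 5 of the 6 other kinesins tested, and none of these promoters held the letters. From 50 bases before to 20 after the start, 7 of the 11 mitotic promoters held a copy, against 2.28% of those of genes tested. The letters CCAAT occurred in the whole window of 7 of the 11, against 38.7%, and TTTAAA in 2 of the 11, against 9.39%; both were searched on both strands, and overlaps with TTTGAA were not excluded. Such matches are letters in a window and not shown to be sites in use.

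The stretch from 50 bases before to 20 after the start is given for 4 of these, to show the element close to the start in motors of different mitotic steps. All are from RefSeq, build GRCm38.p6, read 5′ to 3′ on the strand of the gene, with the element in capitals (TTTGAA where it lies on that strand, and otherwise its complement TTCAAA). Kif11 is at chr19:37376332-37376401 on the plus strand, Kif15 at chr9:122951031-122951100 on the plus strand, Kif20b at chr19:34922308-34922377 on the plus strand and Kif23 at chr9:61946780-61946849 on the minus strand. Kif20b held 2 copies side by side.
Kif11: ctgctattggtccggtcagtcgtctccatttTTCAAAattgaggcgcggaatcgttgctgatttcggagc
Kif15: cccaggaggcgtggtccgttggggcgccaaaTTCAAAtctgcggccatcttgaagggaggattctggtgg
Kif20b: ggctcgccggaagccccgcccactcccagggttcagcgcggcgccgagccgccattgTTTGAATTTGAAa
Kif23: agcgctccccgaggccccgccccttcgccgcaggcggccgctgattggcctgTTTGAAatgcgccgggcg

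Levels were compared between genes per kb of the kept transcript, with lengths from the matched GENCODE entries. On this scale Kif20a was highest at a mean of 60.5 CPM per kb over the 4 libraries, followed by Kif5b at 45, Kif2c at 42.2, Kif22 at 40.1 and Kif23 at 39.9. The libraries of Kif2c, Kif22 and Kif23 overlapped, so their order is not resolved. Kifc1 at 33.8 and Kif11 at 33.5 were also within each other's spread. Of the 12 mitotic kinesins tested, 11 were above 12 CPM per kb, and Kif14 was at 5.58. Among the transport kinesins Kif1c came second to Kif5b at 28.8, and 9 of the 13 were below 9 CPM per kb. Kif21a was at 1.09 and 1.15 CPM per kb in the empty vector libraries, already low in the family, and at 0.161 and 0.175 in the Dnm3os libraries.

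**Figure D3:**
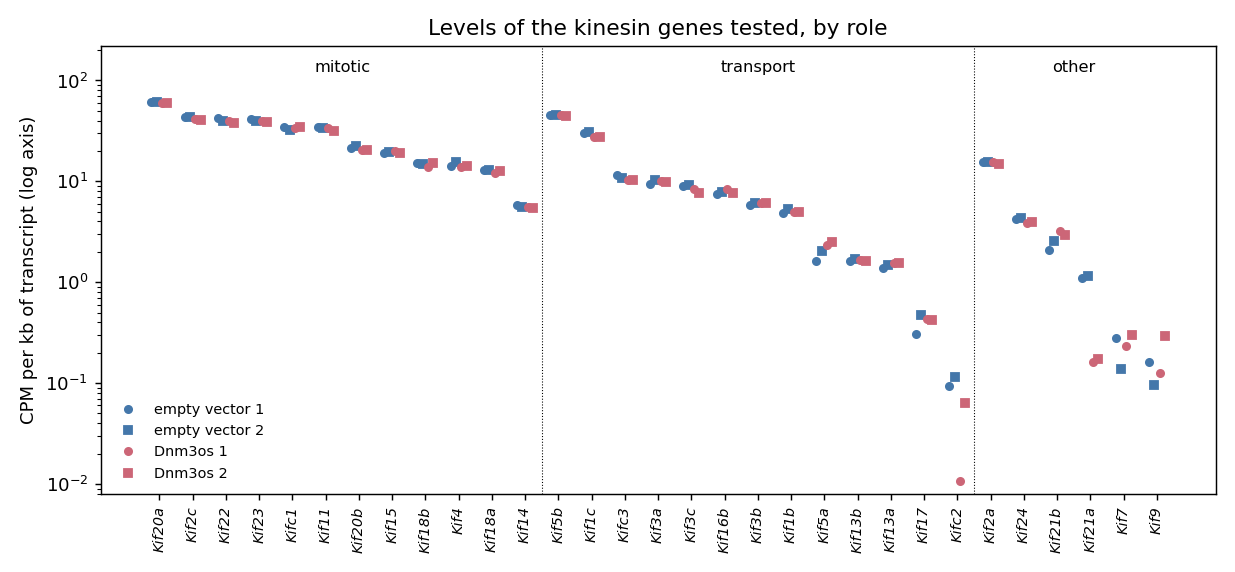
Level per kb of transcript (log axis) of the 31 kinesins tested in each library (circles, replicate 1; squares, replicate 2; blue, empty vector; red, Dnm3os), ordered within each role. Most genes show 4 points on top of each other, and Kif21a shows 2 points near 1.09 to 1.15 and 2 near 0.161 to 0.175.

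Of the kinesins with other roles, 6 of 14 were tested, and 1 rose and 1 fell, the Kif21 pair described above. That is 33.3% called, against 12.3% of all genes, and rests on those 2 genes. Kif2a, which takes microtubules apart in resting and dividing cells, stood at 54.7 and 55.0 CPM in the empty vector and 54.7 and 53.1 CPM in the Dnm3os libraries, with a 95% interval of the log2 fold change of -0.12 to 0.07. Kif24, which acts at centrioles, was at 23.7 and 24.1 CPM against 21.4 and 22.1 CPM (-0.14 ± 0.06, adjusted p = 0.204 by edgeR). Kif7, a cilium protein of Hedgehog signalling, had 51, 22, 31 and 47 counts. Kif9, known from sperm flagella, had 19, 10, 11 and 30, and passed the filter through the Dnm3os libraries alone. Both overlapped between the groups.

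The 11 members that were not tested had at most 5 counts in any library. Kif12, Kif26a, Kif26b, Kif2b and Kif6 had 0 counts in all 4 libraries, which allows up to 3 counts or 0.0754 to 0.102 CPM per library, counting error only. Kif16bos, Kif19a, Kif27, Kif4-ps, Kif1a and Kif5c had between 0 and 5 counts. No difference could be detected for these 11 at this depth.

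Genes for proteins that work with kinesins were read from lists. Of the 26 light chains and cargo adaptors listed, 22 were tested, 0 rose and 1 fell, or 4.55% called against 12.3% of all genes. At an unadjusted p under 0.05 by edgeR, 2 were higher and 3 lower, against 1593 higher and 1465 lower of all 13172 genes tested. The one that fell was Klc4, a light chain, from 38.1 and 39.5 to 29.4 and 32.3 CPM (log2 fold change -0.33 ± 0.06, adjusted p = 0.000424 by edgeR). Klc1 (0.05 ± 0.04) and Klc2 (-0.12 ± 0.06) did not pass. Of 26 dynein and dynactin genes tested, whose products form the motor that runs the opposite way, 2 rose and 2 fell, or 15.4% called against 12.3% of all genes. Dync1li1 (0.18 ± 0.04), a light intermediate chain, and the light chain Dynll2 (0.15 ± 0.04) rose, and the dynein heavy chain Dync1h1 (-0.20 ± 0.04) and the light chain Dynlt1b (-0.11 ± 0.03) fell. The list medians of adaptors and dynein genes were both -0.01.

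Of 26 mitotic partners of kinesins, 0 rose and 1 fell, the cytokinesis scaffold Anln (-0.11 ± 0.03), or 3.85% called against 12.3% of all genes. At an unadjusted p under 0.05 by edgeR, 1 was higher and 4 were lower, against 1593 higher and 1465 lower of all 13172 genes tested. Racgap1 (-0.03 ± 0.03), the spindle assembly factor Tpx2 (0.01 ± 0.03) and the central spindle bundler Prc1 (-0.05 ± 0.03) did not pass, nor did Cenpe, a kinetochore kinesin without a Kif symbol (-0.06 ± 0.04). Of 16 proliferation genes, 0 rose and 4 fell, or 25% called against 12.3% of all genes, and against 5.75% of all genes that fell. Their median was -0.04, and by edgeR 0 were higher and 5 lower at an unadjusted p under 0.05. The 4 were the topoisomerase Top2a (-0.15 ± 0.03), Mki67 (-0.11 ± 0.03), the replication clamp Pcna (-0.10 ± 0.03) and the transcription factor E2f1 (-0.13 ± 0.04). Their part in the levels of the mitotic kinesins was not tested. In these bulk libraries, fewer cells in division and less RNA per dividing cell cannot be told apart.

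Tubulins and microtubule-associated proteins had the highest share called of these lists, with 3 higher and 4 lower of 23 tested, or 30.4% against 12.3% of all genes, and a median of 0.00. Tubb2b (0.61 ± 0.12), a tubulin at 4.48 ± 0.383 CPM in the empty vector and 6.84 ± 0.515 CPM in the Dnm3os libraries (SD, n = 2), and Tubb2a (0.41 ± 0.09), at 8.17 ± 0.0722 and 10.8 ± 0.275 CPM, rose. Tubb6 (-0.23 ± 0.04), a tubulin, and Clip1 (-0.21 ± 0.03), which tracks growing ends, fell. Tubulin genes resemble each other, so their reads are uncertain.

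**Figure D4:**
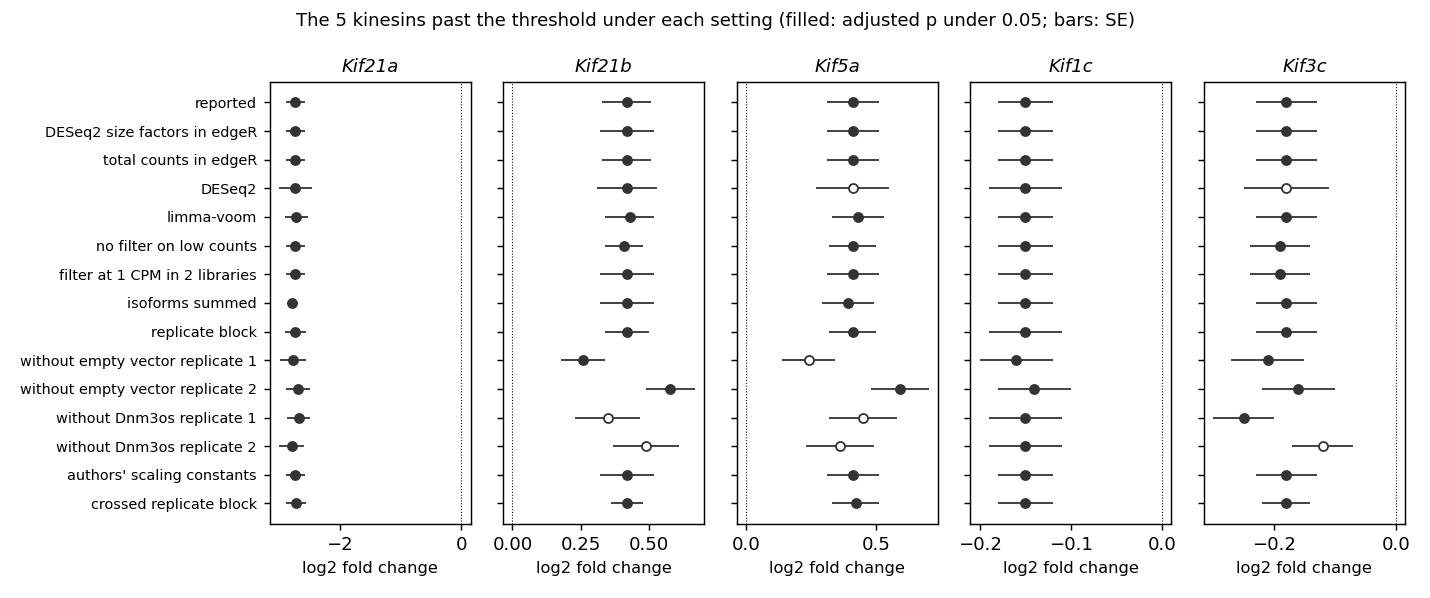
Log2 fold change with its SE of the 5 kinesins past the threshold under the reported fit and each of 14 alternatives, filled where the adjusted p was under 0.05. Kif21a and Kif1c are filled in all rows, while Kif21b, Kif5a and Kif3c lose their call in 2, 4 and 2 of them.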

How the data were processed

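The authors deposited, per the file headers, raw and normalized counts for 35786 RefSeq transcripts per library. The raw column holds whole-number read counts. The authors' normalized column is a scaled signal, the raw count times 1 constant per library (0.8653 to 1.1723), and gave only an alternative scaling. The submitters' processing notes name TopHat, Bowtie2, DESeq2 and mm9, without roles; how reads were counted, with which annotation and strand setting, is not given in the sources used here. Transcripts were matched to symbols in RefSeq (35499) or GENCODE (178) tables, and 109 had none. The transcript with the highest mean count stood for each gene, since isoform counts overlap, and 45S ribosomal RNA was left out. Sequences came from the RefSeq promoter table (GRCm38.p6), matched by symbol.

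Genes were filtered with filterByExpr (minimum count 10), scaled with TMM and fitted with edgeR 4.0.16 (quasi-likelihood, R 4.3.3) on the raw counts, group as the only term, with Benjamini-Hochberg adjustment over 13172 genes. Each SE was derived from the F statistic and the log2 fold change, and 95% intervals use the fit's degrees of freedom. The fits were tested on simulated data. Alternatives were other scalings, DESeq2 1.42.0, limma-voom (limma 3.58.1), other filters, summed isoforms, a replicate block and each library left out. Values in every library are given for the kinesins called and the 3 most abundant mitotic and transport kinesins, and up to 4 called members of each other list are named; other kinesins were named to account for all members, and Klc1, Klc2, Kifap3, Racgap1, Tpx2, Prc1, Cenpe and the genes sharing or overlapping reads after their values were seen. Members, roles and lists were chosen with earlier results of these data known. No adjusted p is given over a list alone. A gene neighbouring a called kinesin is not reported here.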

Additional observations from a re-analysis of the deposited data

How the results depend on the processing

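Kif21a and Kif1c kept direction and call under all 14 alternatives, Kif21b and Kif3c under 12 and Kif5a under 10. DESeq2 called 404 genes higher and 362 lower, with 1 kinesin higher and 1 transport kinesin in all; the cause was not tested. With no filter on low counts 1 mitotic kinesin was called. Leaving out 1 library at a time gave 465 to 808 genes higher and 396 to 786 lower, 0 to 2 kinesins higher, 2 to 5 lower, 0 to 2 mitotic and 1 to 3 transport kinesins called, with fewer samples in each fit. The median log2 fold change ran from -0.069 to -0.045 for mitotic and from -0.055 to 0.041 for transport kinesins. A lone library is assumed to vary like the other group. Kinesins that were not called changed sign when single libraries were left out: Kif13b (-0.051 to 0.017), Kif15 (-0.042 to 0.048), Kif16b (-0.0012 to 0.13), Kif17 (-0.16 to 0.49), Kif18b (-0.11 to 0.0023), Kif1b (-0.094 to 0.041), Kif3a (-0.055 to 0.068), Kif3b (-0.012 to 0.062), Kif5b (-0.039 to 0.0039), Kif7 (-0.068 to 0.96), Kif9 (-0.041 to 1.18) and Kifc1 (-0.0088 to 0.084). Others not called kept their sign but moved by over 1.5 times in at least 1 direction: Kif13a (0.062 to 0.17), Kif14 (-0.076 to -0.0074), Kif18a (-0.09 to -0.038), Kif20a (-0.049 to -0.021), Kif23 (-0.10 to -0.04), Kif2a (-0.049 to -0.0029) and Kifc3 (-0.16 to -0.056). Kif15 was also at -0.00089 without a filter.

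The labels do not say that equal replicate numbers mark a shared day or culture. Over 9300 genes, deviations from the group means correlated at -0.25 between libraries of the same number. A replicate block gave 868 genes higher and 782 lower and left the same 5 kinesins called. With the numbers crossed, chosen after seeing the data, 1054 genes were higher, 945 lower and 1 mitotic kinesin was called.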

Other observations

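The nearest protein-coding neighbours of the called kinesins in the RefSeq annotation, up to 3 on each side where the files hold the gene, were read for the same comparison, after the kinesin values were seen. For Kif21a these were 4 genes, of which Syt10, a synaptotagmin, had 0 counts in all libraries. Alg10b, which adds glucose to the lipid-linked sugar used for protein glycosylation, stood at 124, 125, 125 and 120 CPM in empty vector 1 and 2 and Dnm3os 1 and 2 (log2 fold change -0.03, adjusted p = 0.706 by edgeR). Cpne8, a calcium-dependent membrane-binding protein next to Kif21a, stood at 116, 117, 103 and 100 CPM and fell by 0.20 on the log2 scale (adjusted p = 0.00032 by edgeR). Abcd2, a peroxisomal fatty acid transporter, was at 1.63, 1.5, 1.8 and 1.28 CPM with overlapping groups. Apart from Syt10, which could not show a difference, none of these 4 differed by as much as the 6.66-fold of Kif21a. Abcd2 had only 44 to 65 counts. Among the neighbours read for Kif21b, only Tmem9 had enough counts to be tested, and it was not called (log2 fold change 0.12, adjusted p = 0.492 by edgeR). It had at most 10.1 CPM. Ascl5, Cacna1s, Mroh3 and Gpr25 had 0 counts in all libraries and Inava at most 2, so these could not show a difference. By Kif5a, the stress-response factor Ddit3 rose (log2 fold change 0.50, adjusted p = 0.000313 by edgeR). Dctn2, the dynactin subunit next to Kif5a, was at 0.01, and another called neighbour of Kif5a is not reported here. By Kif1c, the immune adaptor Scimp rose (1.07, adjusted p = 0.000209 by edgeR). By Kif3c, the DNA methyltransferase Dnmt3a fell (-0.11, adjusted p = 0.0262 by edgeR). Of all genes tested, 12.3% were called.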
